A study of Bubalus bubalis with 8 samples.

Results

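The MECs harvested 2 h after heat stress were compared with those harvested 30 min after it, on 1 array each from the same slide, over the 17541 probes that were well above background at 2 h. MECs are mammary epithelial cells, here a primary culture from buffalo mammary tissue that had been freed of fibroblasts by selective trypsinization and was used at passage 10. Both groups had received 1 h at 42 °C and were then returned to 37 °C and 5% CO2. By design they differed in the recovery time of 30 min or 2 h. Each was also a separate harvest on its own array, which cannot be told apart from recovery time. The other 6 arrays of the series held unstressed MECs (CTR) and later recovery times, of which 4 h and 16 h shared the slide of 30 min and 2 h, while 8 h, 12 h, 24 h and CTR lay on the other slide. The 17541 probes, 40.2% of the 43653 on the array outside its control spots, were those that the scanning software had marked as well above background in the 2 h file. They carried 8793 gene symbols. With 1 array per condition there was no replicate check and no p-value could be given, and precision is limited by the number of arrays.

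A level below is the log2 signal of a probe minus the 75th percentile of its array, and a difference is the 2 h level minus the 30 min level, taken from the deposited log2 table. The scanner file of the 30 min array could not serve, since over these probes its differences from 2 h followed the deposited ones with r = 0.0591, against r = 1.00 for each of the other 6 arrays. No background mark was therefore available at 30 min. Among the other 7 arrays the highest detection limit was a level of -0.09, which stood in for it, and a 30 min level below this limit is treated as not measured, so that a rise from it is written as at least N-fold. Of the 17541 probes, 11176 (63.7%) had a 30 min level at or above the limit. The lowest 2 h level of a probe marked as well above background was -2.24, and the highest of a probe not so marked was -1.96. The SD between probes of 1 gene, pooled over the 4044 genes with at least 2 of these probes, was 0.40, and the 3-fold difference used as a call, 1.58 on the log2 scale, is 3.93 times that. This error covers the probes and spots of the arrays and not the spread between cultures.

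Cells that meet a heat shock unfold part of their proteins, release heat shock factor 1 from its chaperones and transcribe HSP70, HSP40, HSP90 and small heat shock protein genes. When the chaperones have bound the damaged protein the factor is silenced again, and short-lived transcripts of the inducible genes are lost during recovery. Immediate early genes and cytokine genes, many of them under NF-kB, follow a similar rise and decay in activated cells. Mammary epithelium is known by its keratins and junction proteins and, in lactation, by caseins and whey proteins.

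The probes that the main differences rest on are 60 bases long, and the first 30 of them are shown so that a reader can place each one. Positions are those of the array design on the bovine build Btau_3.1, with the strand given by their order in the file. Whether a probe lies in coding or untranslated sequence was not annotated in the files used here. HSPA6 and DNAJB1 are shown for the heat shock genes, IL10 and FYN for those lower at 2 h, and KRT18, PRSS22 and LTF for those higher at 2 h.
HSPA6 (chr3:8748912-8748971, minus strand): accagttagcagacaaagaggaatatgagc
DNAJB1 (chr7:9502456-9502515, minus strand): actgccaacacaagaccaaagtgtgtgact
IL10 (chr16:3568292-3568351, minus strand): tgtgcctctcccctagagtatttattacct
FYN, first probe (chr9:40585448-40585507, plus strand): tgtaaaaggccaaacctctgttcagtgtaa
FYN, second probe (chr9:40533060-40534917, plus strand): acaggagtgaccctgtttgtggccctttat
KRT18, first probe (chr5:29955922-29955981, minus strand): agaagcagggtcccctggggagcaggagat
KRT18, second probe (chr5:29956573-29956818, minus strand): aaatctgaaggccagcttggagaacagcct
PRSS22, first probe (chr25:2735996-2736055, plus strand): gtcaacgctttttacagttatttGTAACCG
PRSS22, second probe (chr25:2736019-2736078, plus strand): GTAACCGCACCCACGTATCTTATTTATTCC
LTF, brightest of 5 probes (chr22:54347128-54347187, plus strand): ctctcccttcctgaagtcggatttttgcca
The second probes of FYN and KRT18 cover a longer stretch of the genome than their 60 bases. The capitals mark the bases that both PRSS22 probes hold, 37 in all, so these probes are not independent readings, and the same was true of the probe pairs of ELANE (54 bases shared) and CELA2A (41).

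The 2 h and 30 min arrays were close to each other over most of these probes. The median difference was 0.01, the quartiles were -0.22 and 0.28, the SD was 0.54, and 93.5% of the probes lay within 2-fold. At 3-fold, 337 probes were higher at 2 h (1.92%) and 35 were lower (0.2%). At 2-fold, the numbers were 861 (4.91%) and 282 (1.61%). By gene symbol, taking the median over the probes of a gene, 153 genes were 3-fold higher (1.74%) and 14 were 3-fold lower (0.159%), and 396 (4.5%) and 118 (1.34%) passed 2-fold. Of all genes, 53.7% were higher at 2 h, with a median difference of 0.03.

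Most of the probes called higher started from a 30 min level that was not measured. Of the 337, 330 had a 30 min level below the limit. Among the 11176 probes at or above the limit, 7 were 3-fold higher (0.0626%) and 34 were 3-fold lower (0.304%), and at 2-fold 65 (0.582%) and 215 (1.92%). The background mark at 2 h shut out probes at the noise at 2 h but not those at the noise at 30 min. The limit works the other way, since it asks for a high level at 30 min but not at 2 h and so favours falls. With a limit of -1.38, estimated from the 30 min noise value, 36 probes were 3-fold higher and 35 lower. At 2-fold these were 180 and 282. The 7 against 34 therefore depended on the limit chosen. Medians over genes measured at 30 min carry the same tilt. Over all 43653 probes the shares past 3-fold were 0.774% higher and 1.16% lower, and 3.06% and 3.5% passed 2-fold. With the mark at 2 h or a 30 min level at or above the limit as the condition, 11 further probes entered. All of them were 3-fold lower at 2 h, and 8 of these lay in the last 2 rows of the array. Of the 35 lower probes, 30 had a median level over the 6 other arrays that was below the limit.

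For scale, the 4 h and 16 h arrays of the same slide were set against each other over the 10710 probes well above background at 2 h, 4 h and 16 h. Of these, 3.18% differed by 3-fold between 16 h and 4 h with an SD of 0.70, against 0.598% and an SD of 0.41 between 2 h and 30 min. Between 4 h and 2 h, a comparison that shares the 2 h array, 4.53% differed by 3-fold. Without replicates these shares describe the arrays and were not tested.

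Heat shock genes divided into a few that were lower at 2 h and many that differed little. HSPA6, an HSP70 made almost only under stress, was the lowest of all genes by symbol. Its level was 2.57 at 30 min and -0.92 at 2 h, 11.3-fold lower at 2 h. On the other arrays it was well above background at 8 h (3.66) and 12 h (0.34) alone. HSPA6 has 1 probe among those measured, so no second probe bears on it.

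DNAJB1, the HSP40 partner that brings substrates to HSP70, had 2 probes. The level of the brighter one was 5.69 at 30 min and 4.13 at 2 h, 2.95-fold lower, and that of the other 1.56 and 1.06, 1.42-fold lower. The CTR levels of these probes, from the other slide, were 4.02 and 0.88, so that at 2 h both lay within 2-fold of CTR. HSPA1A, the main inducible HSP70, was lower in each of its 5 probes, by between -0.58 and -0.26, with a median of -0.50. The brightest HSPA1A probe at 2 h went from 5.88 to 5.30. HSPA8, the constitutive HSP70, had a median difference of -0.34 over 6 probes, and HSPH1, an HSP110 that recharges HSP70, one of -0.14.

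As a list, the HSP70 and HSP110 family had a median of -0.22 over 8 genes, 6 of them lower, beside 0.03 over all genes. HSP90 and HSP60/HSP10 chaperones had a median of 0.00 over 10 genes, and the TRiC/CCT chaperonin, which folds actin and tubulin, one of 0.09 over 8. The DNAJ co-chaperones had a median of 0.13 over 23 genes, with DNAJB1 alone past 2-fold. Over the 19 of them measured at 30 min the median was 0.04, with 11 higher and 8 lower. The small heat shock proteins and BAG family had the highest median of the chaperone lists, 0.35 over 11 genes. Within it CRYAB, a small heat shock protein that holds unfolded protein, went from 0.53 to 1.62 in its brighter probe, 2.13-fold higher, and its other probe was at least 1.24-fold higher from a 30 min level below the limit. HSPB8 read 3.80 and 4.17 in the only one of its 3 probes measured at 30 min, and its partner BAG3 was 0.15 higher over 3 probes that ranged from -0.65 to 0.26. The ER chaperones and unfolded protein response had a median of -0.09 over 23 genes, none past 2-fold, with HSPA5 (BiP) at -0.31.

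Immediate early genes lay on both sides of 0. Their median was -0.07 over 40 genes, with 19 higher and 21 lower, and 2 genes past 2-fold on each side. Of all 8793 genes, 4.5% were 2-fold higher and 1.34% 2-fold lower. PTGS2, the inducible prostaglandin synthase, was the lowest of the immediate early genes. Its brighter probe read 3.45 at 30 min and 1.95 at 2 h, 2.84-fold lower, and the other probe was below the limit at 30 min. NR4A1, a nuclear receptor induced within minutes of many stimuli, was lower in its 3 probes by 0.72 to 1.63, the brightest going from 5.49 to 4.77. FOS, EGR1, JUN and ATF3, the AP-1 and early growth response factors, had median differences of 0.40, 0.05, -0.08 and -0.27, with 1 of the 3 FOS probes below the limit at 30 min. GADD45G, a stress sensor of the cell cycle, went from 1.01 to 2.36 in its brighter probe, 2.54-fold higher, and its other probe was below the limit on both arrays. KLF2 went from 0.58 to 1.64 in its single probe.

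Of the 27 interleukin, TNF and colony-stimulating factor genes on the array, 9 reached the limit at 30 min and 9 at 2 h, and IL10 was the only one past 2-fold, lower at 2 h, of the 16 that were well above background at 2 h. IL10, which restrains inflammatory cytokine production, had 2 probes that read 2.55 and 0.80 at 30 min and 1.08 and -0.54 at 2 h, 2.78-fold and 2.54-fold lower. IL1B, the inflammasome cytokine, was lower in each of its 4 probes by 0.60 to 0.90, the first going from 6.55 to 5.87. IL1A, a related cytokine, was lower by 0.17 and 0.48. TNF differed by -0.06 and -0.10, with its brighter probe at 5.93 and 5.83, and CXCL2 was at 5.74 on both arrays in its brighter probe. CSF2, a growth factor for granulocytes and macrophages, was 0.67 higher, from 2.59 to 3.26. IL6, a cytokine of the acute phase response, was near the limit, at 0.00 and -0.88 in its brightest probe. None of the other 6 arrays had these probes of IL1B, TNF, CXCL2 (the brighter) and CSF2 well above background.

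The interleukins, TNF and colony-stimulating factors had a median of 0.04 over 16 genes. Over the 9 with a 30 min level at or above the limit, a choice that favours falls, it was -0.27. The chemokines had a median of -0.07 over 18 genes, and the NF-kB subunits, inhibitors and feedback genes one of -0.11 over 20. NFKBIA, the inhibitor that NF-kB itself induces, read 7.22 and 7.02 in its first probe and was lower by 0.14 to 0.42 over 4. TNFAIP3, a second feedback inhibitor, went from 0.87 to 0.05. Of the 4 chemokines past 2-fold higher, CCL16, CCL22, CXCL14 and CXCL10, none was 2-fold higher in a probe whose 30 min level reached the limit. Among all 8793 genes 4.5% were 2-fold higher.

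The listed MHC class II genes were lower at 2 h, and leukocyte markers were more often lower than higher. Professional antigen-presenting cells show peptides to T cells with MHC class II molecules. The 5 measured genes of the MHC class II and CD74 list were all lower, with a median of -0.82. A class II probe outside that list, under the symbol BLA-DQB, went the other way. It read -0.48 at 30 min, below the limit, and 2.16 at 2 h, a difference of 2.64. BOLA-DRA, the class II alpha chain, read 6.23 and 5.33 in its brightest probe, and a second probe 5.59 and 4.69, while the third differed by -0.24. CD74, the class II invariant chain, was lower in each of 5 probes, by between -1.05 and -0.16. The leukocyte markers had a median of -0.30 over 41 genes, with 31 lower and 10 higher. Past 2-fold were 4 of the lower and 2 of the higher ones, beside 1.34% and 4.5% of all 8793 genes. The median of -0.30 is smaller than the SD of 0.40 between probes, which is a spread of single probes and not of a median over genes. The lowest were NKG7, a granule protein of cytotoxic cells, from 2.89 to 1.36, ITGAL, the alpha chain of LFA-1, from 2.63 to 1.37, C1QB, a chain of complement C1q made by macrophages, at -1.15 over 3 probes, and MPEG1, the macrophage perforin, at -1.05 over 4. PTPRC, the CD45 antigen of all nucleated blood cells, differed by -0.11 over 3 probes.

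FYN, a SRC family kinase of lymphocytes and other cells, was the only gene whose probes, where it had at least 2, were all 3-fold lower. Its first probe read 1.98 at 30 min and 0.08 at 2 h, and its second 1.17 and -0.97, 3.74-fold and 4.39-fold lower. Neither was well above background on any of the other 6 arrays. JAM3, a junctional adhesion molecule, was 2.39-fold and 2.97-fold lower in its 2 probes, CTSS, a lysosomal protease of antigen-presenting cells, 2.04-fold and 2.36-fold, and LXN, a carboxypeptidase inhibitor, 2.15-fold and 2.52-fold. Of genes with 1 probe, LOC788205, TSPAN11, PLD4 and GZMH followed HSPA6, at -2.01, -1.83, -1.78 and -1.77. PLD4 is an endolysosomal nuclease of dendritic cells and GZMH a granzyme. LOC509513 had a median of -1.26 over 2 probes. Of the 4044 genes with at least 2 probes, 14 were 2-fold lower in every one of them and 28 were 2-fold higher, the latter without regard to the limit at 30 min. By the median over probes, 1.34% of all 8793 genes were 2-fold lower and 4.5% 2-fold higher.

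Leukocyte transcripts were more plentiful on both arrays of this comparison than on the others. Of the 48 listed genes on the array, 38 reached a level of -0.09 on each of both arrays, against 10 in CTR, 27 at 16 h and 10 to 13 on the remaining 4. The levels of the list, in units of the 75th percentile of an array, summed to 1068 for 30 min, to 823 for 2 h and to between 73.0 and 219 for the other 6. CD5, CD6, CD8B, MS4A1, CD79B, CD163 and ITGAM were not well above background at 2 h. The part of leukocyte RNA in the differences reported here was not tested. In bulk RNA, fewer cells of a type and less RNA per cell cannot be told apart.

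Some genes of neutrophils and of mucosal defence were higher at 2 h, though their lists were divided. LTF, lactoferrin, an iron-binding protein of milk and of neutrophil granules, was 3-fold higher in the 2 of its 5 probes that were measured on both arrays. These read 3.40 and 1.17 at 30 min and 5.82 and 3.1 at 2 h, 5.34-fold and 3.81-fold higher. Another was at least 2.56-fold higher, and for the remaining 2, whose 2 h levels did not reach the limit, no bound can be given. The brightest LTF probe read 5.71 and 7.39 on the 4 h and 16 h arrays and was not well above background on any array of the other slide. WFDC2, a secreted whey acidic protein domain inhibitor, went from 1.10 to 3.47 in its single probe, 5.16-fold higher. PRSS22, a serine protease of airway epithelium, read 2.49 and 2.47 in its overlapping probes at 2 h and was below the limit at 30 min, at least 5.98-fold and 5.90-fold higher, and it was not well above background on the other 6 arrays.

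CSF3R, the receptor of granulocyte colony-stimulating factor, went from 1.94 to 3.30, the highest difference of the 41 leukocyte markers. MPO, the peroxidase of neutrophil granules, was well above background on the 2 h array alone, at 0.10, at least 1.14-fold higher. The neutrophil granule and surface genes, a list added after the values had been seen, divided into 6 higher and 5 lower among the 11 measured at 30 min, with a median of 0.55. Over all 18 that were well above background at 2 h the median was 0.79, but 7 of these entered through the 2 h array with a 30 min level below the limit, and without the filter on background the median over 29 genes was -0.085. S100A9, also a neutrophil protein, was past 2-fold lower, at 3.42 and 2.35. Of the 9 alarmins and acute phase defence genes measured at 30 min, 3 were higher and 6 lower, with a median of -0.10, against 0.22 over all 15 that were well above background at 2 h. Chosen after their values were seen, CCR3, the eotaxin receptor, read 1.35 and ALOX15, a lipoxygenase of eosinophils and other cells, 2.38 at 2 h, at least 2.71-fold and 5.56-fold higher. CCR3 was well above background on no other array, and ALOX15 on no other but 4 h.

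S100A7 (psoriasin) and FBP1 (a gluconeogenic enzyme) had 2 probes each, all below the limit at 30 min. Their brightest probes read 0.57 and 1.85 at 2 h against -2.56 and -0.39 at 30 min, at least 1.58-fold and 3.83-fold higher. CELA2A, CELSR2, PLEKHG1 and ARRDC4 had no probe whose 2 h level reached the limit either, so no bound on their rise can be given. ENHO went from 1.04 to 3.15, AOAH from 0.21 to 1.63 and LOC617079 from 0.10 to 1.67 in single probes. BOLA-N, a class I gene, had probes that disagreed. The brightest at 2 h read 0.45 at 30 min and 3.51 at 2 h, and another was at least 5.28-fold higher, while the others were lower at 2 h by 0.49 and 0.32.

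Keratin and junction genes of epithelium were mostly higher at 2 h. Of 22 genes, 20 were higher, with a median of 0.52, and of the 15 with a 30 min level at or above the limit, 14 were higher, with the same median of 0.52. Over all genes measured at 30 min, 48.5% were higher and the median was -0.01. KRT8 and KRT18 form the keratin pair of luminal cells. The brightest KRT8 probe read 3.28 at 30 min and 4.37 at 2 h, 2.12-fold higher, with 6.99 in CTR, so that both arrays lay below the unstressed cells. The other 3 KRT8 probes were below the limit on both arrays. KRT18 read 0.99 and -0.67 at 2 h and was below the limit at 30 min, the first probe at least 2.11-fold higher. In CTR neither KRT18 probe was well above background.

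EPCAM, an adhesion protein of simple epithelia, was 0.90 higher in both of its probes, from 1.5 to 2.40 and from 1.48 to 2.39. KRT19, CLDN4 and KRT15 had differences of 0.73, 0.72 and 0.51. KRT5, the basal keratin, went the other way, at -0.05 and -0.54. Fibroblast markers were few. PDPN alone was measured on both arrays (-0.05), and DCN, DPT, COL1A1 and COL3A1 had 30 min levels below the limit, while PDGFRA, PDGFRB, THY1, FAP, LUM, FBLN1 and COL1A2 were not well above background at 2 h. Their list reached -0.09 in 1 of 12 genes on each of both arrays and in 5 in CTR, and its median of 0.78 over 5 genes rests on the 4 that were not measured at 30 min.

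Milk protein genes were mostly lower at 2 h. The caseins, whey proteins and milk fat genes had a median of -0.42 over 17 genes, 12 of them lower and 4 past 2-fold. None was past 2-fold higher. Among all 8793 genes 1.34% were 2-fold lower and 4.5% 2-fold higher. LALBA, alpha-lactalbumin, read 3.29 and 1.53 at 30 min and 1.51 and 0.36 at 2 h, 3.44-fold and 2.25-fold lower. PAEP, beta-lactoglobulin, was lower in each of 3 probes by 1.36 to 1.75, the brightest going from 6.67 to 5.30. CSN2, beta-casein, had a median of -1.16 over 4 probes, CSN1S1, alpha-S1-casein, one of -1.0 over 6, and GLYCAM1, a mucin of milk, was at -1.09. CSN3, kappa-casein, was 0.31 higher over 2 probes. SCD and FASN, of milk fat synthesis, had medians of -0.02 and -0.13. The levels of the milk list summed to 472 for 30 min and 306 for 2 h, against 2949 for 4 h, 4635 for 16 h and 96.3 to 126 on the other slide.

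Most of the other lists had medians near 0. Medians were 0.02 for MHC class I and peptide loading (11 genes), -0.10 for interferon response genes (28), -0.11 for antioxidant and NRF2 target genes (27), 0.07 for the BCL2 family and caspases (26), -0.08 for glycolysis and glucose uptake (20), 0.01 for proteasome subunits (34), -0.08 for cholesterol synthesis and uptake (21), -0.08 for cell cycle and DNA replication (29) and -0.06 for collagen chains (10). Only 5 of the collagen chains were measured at 30 min, 1 higher and 4 lower, with a median of -0.19. The housekeeping genes had a median of -0.10 over 17 genes, with GAPDH at -0.09 over 8 probes and ACTB at 0.25 over 4. The cytosolic ribosomal proteins, also added after the values had been seen, had a median of -0.21 over 76 genes, 65 of them lower and none past 2-fold. The heat shock factors had a median of 0.04 over 3 genes and the cold-inducible CIRBP and RBM3 were at -0.02 and -0.08. Erythroid and endothelial markers lay lower but rested on 2 genes and 1 gene. The erythroid median was -0.70, with HBA, a haemoglobin chain, at -0.25 and GYPC, of the red cell membrane, at -1.14, and VWF, the only endothelial marker measured, was at -0.72. HMOX1, MCL1 and BCL2 differed by -0.08, 0.32 and -0.44.

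Many of the called probes were counted as departing on 1 array alone, and some of these lay together on it. Of the 372 probes that differed by 3-fold, 204 had a 2 h level within 2-fold of the median of the 6 other arrays. They are counted as departing at 30 min alone. A further 86 had a 30 min level within 2-fold of that median and are counted as departing at 2 h alone. The noise level differed between arrays, at -4.27 for 2 h, -3.47 for 30 min and -2.09 for 24 h. Near the noise the count therefore cannot settle which array departed. An LTF probe among the 204 read -3.49 at 30 min and -1.66 at 2 h, with a median of -2.59 on the other 6. Of the 204, 194 were higher at 2 h. Among these, 9 had a difference above 3, and 8 of them lay on 1 line across the array, with the column falling as the row rose, from IBA57 at row 437 and column 83, through C1D (456, 77), IREB2 (474, 72), WIPI2 (487, 71) and FBXO22 (492, 70), to GNB1 at row 519 and column 69. The rectangle around this line held 3.32% of the 17541 probes and 34 of the 204. GNB1, a G protein subunit, read -3.50 in this probe at 30 min and 4.27 at 2 h, and between 4.07 and 5.06 on the other 6 arrays, while its 3 other probes differed by 0.30, 0.35 and 0.73.

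The opposite pattern was seen at 2 h. LMNA, lamin A, read 5.08 at 30 min and 0.17 at 2 h at row 293 and column 5, while its other probes differed by 0.46 and 0.13. SCD (row 291, column 5) and NOMO2 (row 290, column 4), its near neighbours on the array, were both at -3.01 in these probes, and their other probes lay between -0.56 and 0.30. A probe of ADAMTS5 in the same place (row 292, column 4) went the other way, 1.79 higher at 2 h from a 30 min level of -3.50. The genes of the 204 probes had 163 further probes here, of which 9 were 3-fold apart, with a median difference of 0.15 against 1.78 for the 204. Neither HSPA6 (row 164, column 80) nor FYN, LTF, KRT18 or PRSS22 lay in these places, but 1 of the 2 S100A7 probes (row 458, column 81) lay in the rectangle. The part of array position in the calls was not tested. Without the probes counted as departing on 1 array alone, 63 were 3-fold higher and 19 were 3-fold lower. Both probes of KRT18 and of S100A7, the probes of MPO, CCR3 and ENHO, and 3 of the 5 LTF probes were among those left out by this step, which also removes genes whose level differed at 2 h alone.

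The difference also drifted along the array. Its median was -0.16 over rows 1 to 100 and between -0.03 and 0.12 in the bands of 100 rows that followed, and 114 of the 337 higher probes lay in the band that ends at row 500. The drift is smaller than the SD of 0.40 between probes of 1 gene. With the running median over rows taken out, 327 probes were 3-fold higher and 33 lower.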

How the data were processed

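RNA from 8 conditions was hybridised in 1 colour to bovine arrays, 1 array per condition. The authors extracted spot intensity with Feature Extraction 9.5.3.1, and those scanner intensities were deposited unscaled. Their log2 table, also deposited, was shifted to the 75th percentile of the array, with the median of the 8 arrays removed for every probe, which cancels in a difference between arrays. Here the deposited log2 table gave the 2 h minus 30 min difference. The 2 h scanner file gave background marks and 2 h levels, with control spots left out and spots of 1 probe averaged (SD between spots 0.27, 26 probes), and levels of other arrays follow from the table. The 30 min scanner file was an alternative only, since its spots did not follow the table. A bound sets the 30 min level to -0.09.

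The probes, gene lists and rules were chosen with earlier results of these data known, and 2 of the 32 lists were added after the values had been seen. A gene is the median over its probes that were well above background at 2 h. The rule for named genes took those with at least 2 such probes, all past 3-fold in 1 direction (2-fold where under 5 genes passed) and measured at 30 min, up to 10 on each side, the 5 largest rises and falls among measured genes with 1 probe, the 2 largest rises and falls of each list, and a set of stress, cytokine and reference genes. Genes that rose from below the limit are given as bounds. Some genes that the rule picked are not reported here. No test was possible with 1 array per condition. The steps were run in Python 3.11.15 with numpy 2.4.6 and pandas 2.3.3. They were tested on simulated data that had no noise floor, no 30 min limit and no position effects. That test therefore does not bear on calls where these limits apply. Alternatives in scaling, filter, fold, array region and probe choice were tried.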

Additional observations from a re-analysis of the deposited data

How the results depend on the processing

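No paired analysis was possible because each condition had 1 array. Against 337 higher and 35 lower probes and a median of 0.01, 7 of 32 lists beyond the SD between probes and 18 of 139 named genes past 3-fold, the scanner intensities over all rows gave 5187 and 7435 probes, 25 lists and 89 genes, and turned CELA2A (-0.81), FBP1 (-0.61), LTF (-0.074), CELSR2 (-0.89), PLEKHG1 (-0.70), LOC788205 (0.59) and TSPAN11 (3.41). The 30 min scanner values do not follow the deposited ones there. In rows below 200, with 6180 of the 17541 probes, the scanner values gave 300 higher and 13 lower, against 98 and 12 with the deposited values. Without the filter 506 of 43653 were lower and the median was -0.54. The 10710 probes well above background at 2 h, 4 h and 16 h gave 53 and 11. The 8545 so on all 7 other arrays gave 16 and 4, with 2 of 30 lists beyond the SD. A 30 min level at or above the limit left 7 higher of 11176. The lower rows held 23 lower of 11361, against 35 of 17541 in the main result. At 2-fold there were 861 and 282, at 5-fold 78 and 5, and by gene symbol 153 and 14. Of the alternatives chosen after seeing the data, a 30 min limit estimated from its noise value left 36 higher of 15052 probes. Leaving out probes counted as departing on 1 array alone left 63 and 19 of 17251. Median centring (327 and 37), quantile scaling (325 and 35) and removal of the running median over rows (327 and 33) gave counts near the main ones. Signs near 0 were not fixed. Over the alternatives in scaling and probe choice CCT2 ranged from -0.13 to 0.08 and TNF from -0.17 to 0.01. A low signal at 30 min limits most rises to a bound or to no bound.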
